A study of Mus musculus with 6 samples.

Results

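The tumour suppressor p53, encoded by Trp53, and 9 genes whose products act on it directly were compared between endothelial cells that carried a mutant and cells that carried a wildtype Integrin-β1 chimera. The genes were chosen by symbol, as Trp53, Mdm2, Mdm4, Cdkn2a, Trp73, Usp7, Atm, Atr, Ppm1d and Chek2, and all 10 were found among the 23420 gene symbols of the count table. Of these, 9 passed the filter on low counts, as did 11608 genes in all, and Trp73 did not. The cells were eEnd2, a mouse line of embryonic endothelial origin, stably transfected with human Integrin-β1A that carries eGFP in its extracellular part, driven by a chicken lysozyme matrix attachment region and a short human β-actin promoter, and then sorted for GFP. The chimera was wildtype (β1-WT-GFP) or carried glutamine in place of lysine in the distal NPKY motif (β1-K794Q-GFP), a substitution used to mimic an acetylated lysine. Total RNA of 3 untreated cultures (A, B and C) of each was sequenced after ribosomal RNA depletion, and no untransfected cells were used here. Both groups still hold the mouse Integrin-β1 gene. The 3 cultures of a group came from transfected, sorted cells and are not said to be separate transfections, so that p values measure only the spread between these cultures. Which of the sorted GFP populations a culture came from is not given.

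The p53 protein is a transcription factor that is made continuously and degraded continuously. Mdm2, itself a transcriptional target of p53, is the ubiquitin ligase that marks p53 for the proteasome, and its relative Mdm4 binds and restrains p53 without strong ligase activity of its own. The Cdkn2a locus encodes ARF, which holds Mdm2 away from p53, and Usp7 removes ubiquitin from both p53 and Mdm2. After DNA damage the kinases Atm, Atr and Chek2 phosphorylate the p53 pathway, and the phosphatase Ppm1d, another p53 target, reverses those marks. These controls act largely on protein, whereas the values given here are of RNA only.

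The cultures held between 9589826 and 15287191 counts, and levels are given as CPM, that is, counts relative to the library total scaled with TMM factors. A count of 0 allows up to 3 counts, or 0.209 to 0.3 CPM, for counting error only. The cultures were not equally alike. Cultures A and B of β1-WT-GFP cells had 148 genes at least 2-fold apart, while the other pairs within a group had between 1021 and 2883, so that β1-WT-GFP culture C and β1-K794Q-GFP culture B stood apart from the rest of their groups. All 12 endothelial markers examined passed the filter on low counts, with a summed level of 6673 to 12500 CPM in β1-K794Q-GFP and 8035 to 9133 CPM in β1-WT-GFP cells. Among them Vwf was at no more than 2.41 CPM, and Cldn5, a tight junction gene, was at 17.5, 0 and 24.3 CPM (in the order A, B, C) with β1-K794Q-GFP and at 267, 252 and 4.74 CPM with β1-WT-GFP. Of 10 mesenchymal markers, 2 passed the filter. The summed level of all 10 was 2.58 to 3.75 CPM in β1-K794Q-GFP and 85.5 to 195 CPM in β1-WT-GFP cells. Prrx1 made up most of the sum in β1-WT-GFP cells, at 183.4, 193.5 and 56.55 CPM (in the order A, B, C). In β1-K794Q-GFP cells Prrx1 was at no more than 0.0987 CPM. Dcn, Lum and Twist1 were at 0 in every culture. None of 5 epithelial markers passed the filter, with Epcam, Krt18 and Krt5 at 0. Of 4 haematopoietic markers only Cd68 did, and their sum was 31.1 to 103 CPM in β1-K794Q-GFP and 37.5 to 88.6 CPM in β1-WT-GFP cells, with Ptprc at no more than 0.279 CPM. The part of Prrx1-expressing cells in the differences below was not tested. In cultures measured as a whole, fewer cells of a kind and less RNA per cell cannot be told apart. The human transgene is not a row of the mouse table, so the K794Q label could not be checked from the counts.

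The letters just upstream of the 2 genes that rose are shown because Trp53 encodes a factor that binds DNA and Mdm2 is its classical target. RefSeq start sites (GRCm38.p6) gave 13 windows of 250 bases for the 10 genes. The p53 decamer, the repeated unit of a p53 response element with 10 letters, some of them degenerate, was searched on both strands. It was present in 3 of these windows, belonging to Mdm2, Trp53 and Ppm1d, and in 7.13% of all 32851 windows of the table. The decamer is in capitals. For Mdm2 the whole window is printed (chr10:117710759-117711008, minus strand), with the match ending 176 bases before the start, and for Trp53 the 103 bases that no annotated exon touches (chr11:69580256-69580358, plus strand), with the match ending 65 bases before it.
Mdm2: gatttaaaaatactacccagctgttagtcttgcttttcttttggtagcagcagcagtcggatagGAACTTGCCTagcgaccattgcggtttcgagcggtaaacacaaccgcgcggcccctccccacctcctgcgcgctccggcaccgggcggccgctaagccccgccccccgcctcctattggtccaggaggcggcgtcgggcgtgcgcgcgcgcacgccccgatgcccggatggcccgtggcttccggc
Trp53: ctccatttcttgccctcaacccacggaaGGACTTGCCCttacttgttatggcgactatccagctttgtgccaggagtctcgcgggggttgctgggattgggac
The match of Ppm1d was GAGCTTGCTC, 122 bases before its start. Other motifs were more widely shared: CCAAT was in 33.8% of all windows and in those of 6 of the genes, Atm, Chek2, Mdm2, Ppm1d, Trp53 and Usp7. The GC box GGGCGG was in 32.7% of all windows and in those of Atm, Atr, Cdkn2a, Mdm2, Ppm1d, Trp73 and Usp7. CCGGAAG, an ETS motif, was in 6.91% of all windows and in that of Mdm2, and the E-box CACGTG, in 6.02%, was in none. The intronic start of Mdm2 at which p53 is known to act is not in the table of windows. A match describes the letters and no binding was measured.

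Trp53 and Mdm2 were higher in β1-K794Q-GFP than in β1-WT-GFP cells, by 2.57-fold and 4.4-fold, and were the only members of the 9 tested that passed both thresholds of the study, a difference of 2-fold or more together with an unadjusted p that does not exceed 0.05. Over all tested genes, 5.19% passed both, 404 higher and 199 lower. Mdm4 was lower in β1-K794Q-GFP cells at an unadjusted p under 0.05 but by less than 2-fold, and the other 6, Cdkn2a, Usp7, Atm, Atr, Ppm1d and Chek2, overlapped between the groups. An unadjusted p of at most 0.05 was reached by 3 members and by 10.2% of all tested genes, and an adjusted p of at most 0.05 by 1 member, Mdm2, and by 0.181% of all tested genes. The cultures of the groups did not overlap in 3 members, as in 16.6% of all tested genes. All p values below are from edgeR's two-sided quasi-likelihood F-test, adjusted by Benjamini-Hochberg over all 11608 genes unless said otherwise, and values set in a row are of cultures A, B and C in that order.

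**Figure D1:**
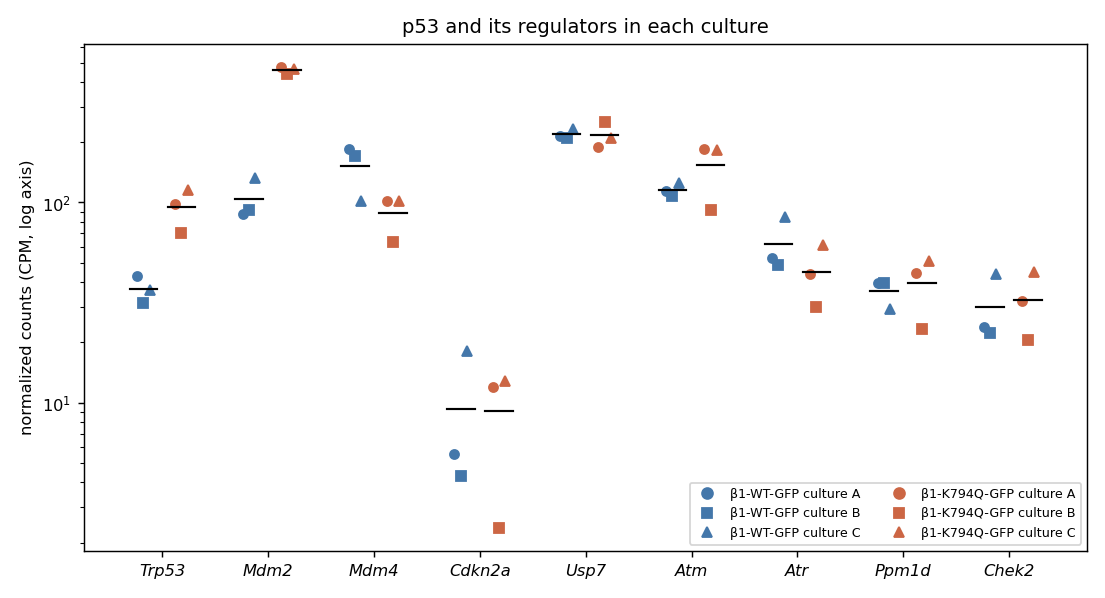
Normalized level (CPM, logarithmic axis) of the 9 tested genes in each culture, with circles, squares and triangles for cultures A, B and C and a bar for the mean of each group. Mdm2 and Trp53 lay higher in all 3 β1-K794Q-GFP cultures, Mdm4 was separated by 102 against 102.2 CPM, and the other genes overlapped.

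Trp53 (chr11:69580359-69591873, plus strand, GRCm38 as are all positions) was at 98.1, 70.5 and 115 CPM in β1-K794Q-GFP cells and at 42.9, 31.4 and 36.4 CPM in β1-WT-GFP cells. Every β1-K794Q-GFP culture was above every β1-WT-GFP culture, and the lowest β1-K794Q-GFP value was that of culture B. The means were 94.6 ± 22.6 and 36.9 ± 5.75 CPM (SD, n = 3 each). That is a log2 fold change of 1.36 (SE 0.24, 95% interval 0.79 to 1.93), with an unadjusted p of 0.00102 and an adjusted p of 0.104, the 113th smallest p of all tested genes. It thus passed the thresholds of the study but not the adjustment over all genes. The call was made without each culture in turn, with log2 fold changes from 1.19 without β1-K794Q-GFP culture C to 1.54 without β1-K794Q-GFP culture B. The nearest tested genes on either side had smaller log2 fold changes: Wrap53, which starts 0.104 kb away on the other strand and encodes a protein needed for telomerase assembly, had a log2 fold change of 0.58 (SE 0.22, adjusted p = 0.447), and Sat2, a polyamine acetyltransferase family member, one of 0.47 (SE 0.46, adjusted p = 0.835).

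Mdm2 (chr10:117688875-117710758, minus strand) had 4934, 4423 and 5407 counts in β1-K794Q-GFP cells, against 1002, 922 and 1911 in the β1-WT-GFP cultures. Scaled to CPM these were 475, 436.5 and 465 against 87.7, 92.2 and 133. The β1-K794Q-GFP cultures were close to each other, with a coefficient of variation of 4.35%, while that of the β1-WT-GFP cultures was 24%, with the highest value in culture C. The means were 458.8 ± 20 and 104 ± 25 CPM (SD, n = 3 each). That is a log2 fold change of 2.14 (SE 0.23, 95% interval 1.58 to 2.7), with an unadjusted p of 6.67e-05 and an adjusted p of 0.0474, the 14th smallest p. Without each culture in turn it ranged from 2.02 without β1-WT-GFP culture A to 2.36 without β1-WT-GFP culture C, past both thresholds each time. The adjusted p was less steady, between 1.67e-14 with DESeq2 and 0.332 without β1-WT-GFP culture B, and at most 0.05 in 6 of 13 alternatives. For Trp53 it lay between 0.000223 and 0.514 under the same alternatives and was at most 0.05 in 3 of them.

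The neighbourhood of Mdm2 on chromosome 10 was higher as well. The 24 nearest tested genes, 12 on each side over 5.53 Mb, were all higher in β1-K794Q-GFP cells, with a median log2 fold change of 0.95, and 8 of them passed both thresholds. Among these genes and itself Mdm2 ranked 4th. Slc35e3, a member of a solute carrier family 22.9 kb away, was at 52.9 against 19.7 CPM (log2 fold change 1.43, SE 0.36, adjusted p = 0.228), and Cpsf6, a subunit of the mRNA cleavage factor, had a log2 fold change of 0.62 (SE 0.28). Relative to β1-WT-GFP cells, the neighbours stood at a median log2 level of 1.08, 0.30 and 1.06 in the β1-K794Q-GFP cultures. Mdm2 itself was at 2.18, 2.06 and 2.15. In culture B the gene was thus as high as in the other cultures while its neighbours were raised less than there. With the level of the neighbours taken into the offset of the fit, the log2 fold change of Mdm2 was 1.33 (SE 0.27, 95% interval 0.68 to 1.98), a 2.51-fold difference. In that edgeR fit Mdm2 was still past both thresholds, with an adjusted p of 0.191. Trp53 lies on chromosome 11 among 24 neighbours with a median log2 fold change of 0.26, of which 16 were higher, 8 lower and 1 past both thresholds. Trp53 had the highest value of these 25 genes, and the offset left it at 1.32 (95% interval 0.71 to 1.94).

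**Figure D2:**
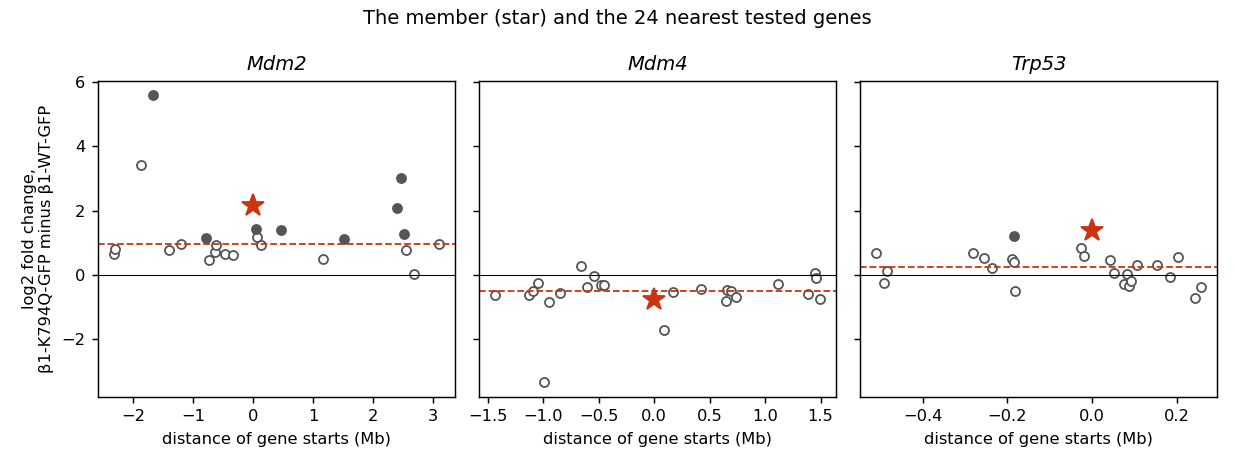
Log2 fold change (β1-K794Q-GFP minus β1-WT-GFP) of Mdm2, Mdm4 and Trp53 (stars) and of the 24 nearest tested genes of each (circles, filled where past both thresholds), by distance between gene starts in Mb, with the median of the neighbours dashed. All 24 neighbours of Mdm2 lie above 0 and 22 of the 24 neighbours of Mdm4 below it, whereas those of Trp53 lie on both sides.

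Mdm4 (chr1:132959484-133030561, minus strand) went the other way. It was at 101.5, 63.7 and 102 CPM in β1-K794Q-GFP cells and at 186, 171 and 102.2 CPM in β1-WT-GFP cells. The groups were separated only by the difference between culture C of each. The means were 89 ± 22 and 153 ± 44.7 CPM (SD, n = 3 each), a 1.72-fold difference. The log2 fold change was -0.78 (SE 0.31, 95% interval -1.52 to -0.04), with an unadjusted p of 0.0409 and an adjusted p of 0.45, so that Mdm4 did not pass the fold threshold. The unadjusted p stayed at or under 0.05 in 1 of 6 fits that left out a culture, the one without β1-WT-GFP culture C, where the log2 fold change was -0.99. The unadjusted p was 0.0737 with the culture letter as a block. Its neighbourhood on chromosome 1 was lower as well. Of the 24 nearest tested genes, 22 were lower in β1-K794Q-GFP cells, with a median log2 fold change of -0.49. Their level was -0.51, -0.51 and -0.62 in the β1-K794Q-GFP cultures, where Mdm4 was at -0.59, -1.26 and -0.58. With that level in the offset, the log2 fold change of Mdm4 was -0.20 (95% interval -0.95 to 0.56). Of its nearest tested neighbours, Tmem81 had a log2 fold change of -0.31 (SE 0.29) and Pik3c2b, a lipid kinase gene, one of -1.71 (SE 1.29).

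**Figure D3:**
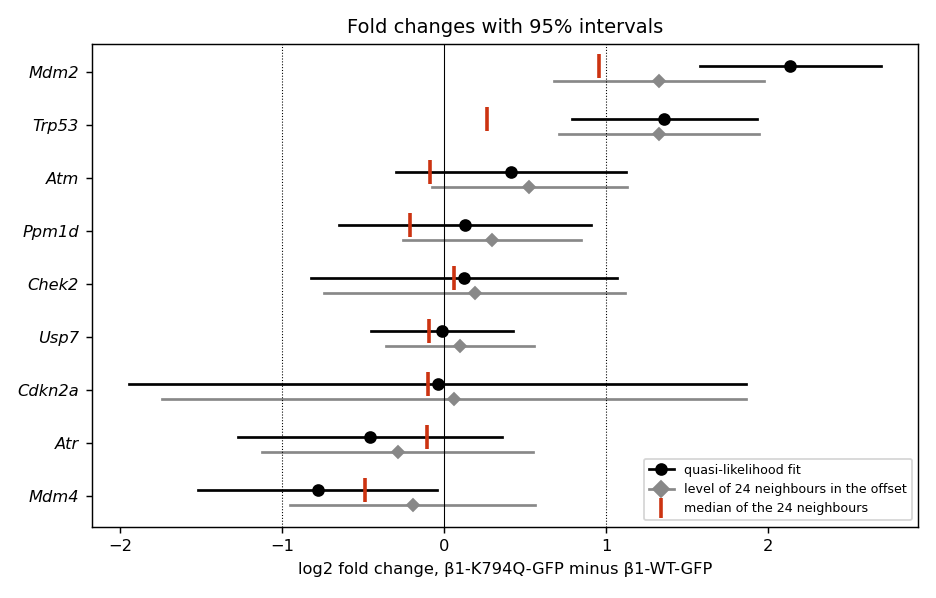
Log2 fold change of the 9 tested genes with 95% intervals from the quasi-likelihood fit (black) and with the level of the 24 neighbours in the offset (grey), and the median of the neighbours (red bars). Dotted lines mark a 2-fold difference, and Mdm2 moves from 2.14 to 1.33 and Mdm4 from -0.78 to -0.20 while Trp53 stays near 1.36.

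Usp7 (chr16:8689595-8792308), the deubiquitinase that acts on both Mdm2 and p53, was at 190, 252 and 209 CPM in β1-K794Q-GFP cells and at 215, 210 and 232 CPM in β1-WT-GFP cells. The groups overlapped, and the means were 217 ± 31.8 and 219 ± 11.4 CPM (SD, n = 3 each). The log2 fold change of Usp7, -0.01 (SE 0.18), had the narrowest 95% interval of the 9 genes, from -0.45 to 0.43, which leaves out a 2-fold change in either direction. Cdkn2a (chr4:89274471-89294653, minus strand) was the least steady. It was at 12, 2.37 and 12.8 CPM in β1-K794Q-GFP cells and at 5.51, 4.3 and 18.1 CPM in β1-WT-GFP cells, so that the spread within each group was larger than the difference between them. The coefficients of variation were 64.1% and 82.2%, and the log2 fold change was -0.04 (SE 0.79, adjusted p = 0.993). Its 95% interval, -1.94 to 1.86, takes in differences of more than 2-fold in either direction. The locus has separate starts for ARF and for the Cdk inhibitor p16, which gene counts cannot tell apart. The neighbouring Cdk inhibitor gene Cdkn2b had a log2 fold change of 0.54 (SE 0.59), and Mtap, a gene of methionine salvage on the other side, one of -0.11 (SE 0.53). Trp73, a p53 relative that can bind many of the same sites, was not detectable at this depth, with 2 counts in β1-K794Q-GFP culture C and 0 in each of the other 5 cultures.

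Of the genes of the DNA damage signal, Atm (chr9:53439149-53536740) was at 185, 92.1 and 184 CPM in β1-K794Q-GFP cells and at 114, 107 and 125 CPM in β1-WT-GFP cells. Cultures A and C were above all β1-WT-GFP cultures and culture B was below them. The log2 fold change was 0.41 (SE 0.29, 95% interval -0.30 to 1.12, adjusted p = 0.746), and without β1-K794Q-GFP culture B it was 0.68, with an unadjusted p of 0.00792. Npat, a histone gene activator that starts 0.307 kb from Atm, had a log2 fold change of -0.01 (SE 0.24). Atr (chr9:95857597-95951781), the kinase of the replication stress signal, was at 44, 30 and 61.3 CPM in β1-K794Q-GFP cells and at 52.8, 48.7 and 84.6 CPM in β1-WT-GFP cells. The groups overlapped, with a log2 fold change of -0.46 (SE 0.34, 95% interval -1.27 to 0.36, adjusted p = 0.755). Atr shares 726 exonic bases with the antisense gene 1700065D16Rik, and whether the counting used strand is not given in the sources used here.

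Chek2 (chr5:110839979-110874145), the effector kinase downstream of Atm, was at 32.4, 20.5 and 45.1 CPM in β1-K794Q-GFP cells and at 24, 22.2 and 43.9 CPM in β1-WT-GFP cells. In both groups culture C was the highest, and the log2 fold change was 0.12 (SE 0.39, 95% interval -0.82 to 1.06, adjusted p = 0.961). Ppm1d (chr11:85311244-85347066), the phosphatase that switches the damage signal off, was at 44.4, 23.3 and 51.1 CPM in β1-K794Q-GFP cells and at 39.8, 39.7 and 29.3 CPM in β1-WT-GFP cells. The groups overlapped, with a log2 fold change of 0.13 (SE 0.32, 95% interval -0.65 to 0.91, adjusted p = 0.947). In β1-K794Q-GFP culture B the 24 neighbours of Ppm1d were at -0.79 on the log2 scale relative to β1-WT-GFP cells and the gene itself was at -0.63. The genes nearest to Usp7, Atr, Ppm1d and Chek2 had log2 fold changes between -0.45 for Hscb, beside Chek2, and 0.75 for Carhsp1, beside Usp7, with adjusted p values of at least 0.566.

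In each gene the cultures were ordered within their own group, and the same order over all tested genes was not examined. β1-K794Q-GFP culture B was the lowest of its group in 8 of the 9 tested genes, Usp7 being the exception, and β1-K794Q-GFP culture C was the highest in 6. In β1-WT-GFP cells culture C was the highest in 6 genes, Mdm2, Cdkn2a, Usp7, Atm, Atr and Chek2, and the lowest in Mdm4 and Ppm1d. Trp53 and Mdm2 passed both thresholds when β1-K794Q-GFP culture B or β1-WT-GFP culture C, which stood apart, was left out alone. No fit left out both.

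Divided by the length of annotated exon, the levels can be ordered between genes. In β1-WT-GFP cells Usp7 was the most abundant, at 28.2 ± 1.46 CPM per kb, followed by Mdm2 at 20.5 ± 4.92, and each was above the next without overlap. Ppm1d, Atm, Mdm4, Chek2, Trp53 and Cdkn2a, from 11.4 down to 7.94 CPM per kb, each overlapped with the next in the order. Atr was lower, at 2.62 ± 0.83 CPM per kb, and Trp73 was at 0. In β1-K794Q-GFP cells Mdm2 was the most abundant, at 90.3 ± 3.93 CPM per kb, with no overlap with Usp7 at 27.9 ± 4.09. Trp53 was the third, at 23.4 ± 5.58 CPM per kb, up from the seventh place at 9.12 ± 1.42, and overlapped with Usp7 above and Atm below it. Mdm4 stood behind Cdkn2a in the eighth place, at 6.02 ± 1.49 CPM per kb, and was above Atr, at 1.91 ± 0.66, without overlap. The exon length counts every annotated isoform, long untranslated ends included, which lowers the level per kb of genes with many isoforms.

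Ratios within a culture do not depend on its depth. The count of Mdm2 was 4.84, 6.19 and 4.04 times that of Trp53 in the β1-K794Q-GFP cultures, and 2.04, 2.94 and 3.66 times in the β1-WT-GFP cultures. The groups did not overlap, and the ratio was 1.77-fold higher in β1-K794Q-GFP cells (difference of mean log2 ratios 0.82). Set against Mdm4, the count of Mdm2 was 4.68, 6.86 and 4.56 times as high in the β1-K794Q-GFP cultures and 0.472, 0.538 and 1.3 times in the β1-WT-GFP cultures. Cultures A and B of β1-WT-GFP cells thus held more Mdm4 than Mdm2 counts, and the other 4 cultures more Mdm2, a 7.62-fold difference between the groups. Against Usp7, the count of Mdm2 was 2.5, 1.73 and 2.22 times as high in the β1-K794Q-GFP cultures and 0.408, 0.439 and 0.575 times in the β1-WT-GFP cultures, a 4.54-fold difference. Whether the level of the neighbourhoods has a part in these ratios was not tested. With the median level of the 24 neighbours of each gene subtracted, an alternative added after the data were seen, the difference of the Mdm2 to Trp53 ratio was 0.02 on the log2 scale and the groups overlapped, while the ratios to Mdm4 and to Usp7 were still apart, by 2.81-fold and 2.33-fold. In the exact permutation test (two-sided) on the counts as they are, each of the 3 ratios gave p = 0.1, also after adjustment over the 3, the smallest p that 3 cultures against 3 allow.

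**Figure D4:**
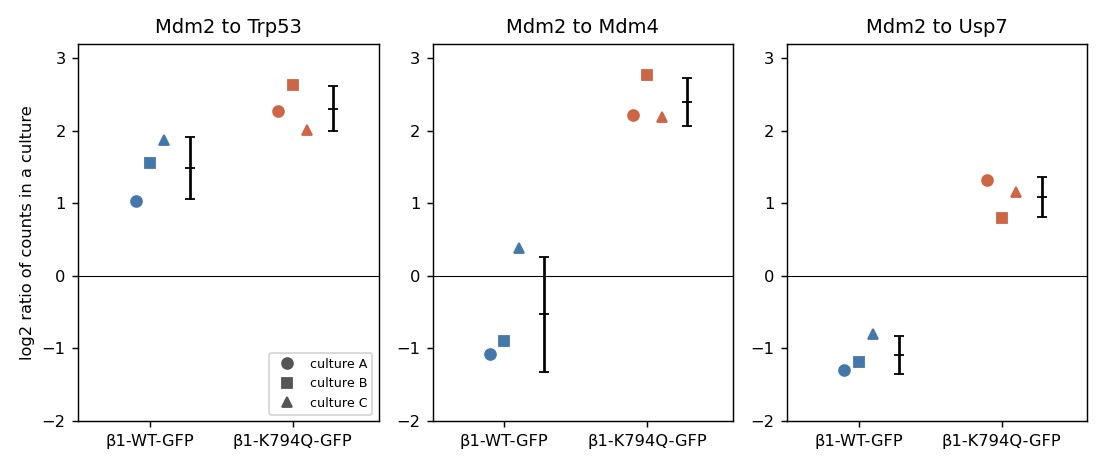
Log2 of the ratio of counts of Mdm2 to Trp53, to Mdm4 and to Usp7 in each culture (circles, squares and triangles for cultures A, B and C), with the mean and SD of each group beside the points. The groups do not overlap in any of the 3 ratios, and the ratio to Mdm4 differs the most, by 2.93 on the log2 scale.

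Further genes of the p53 pathway were examined as lists written from general knowledge. Together they held 154 tested genes, of which 15 were higher and 1 was lower past both thresholds. In the 3 lists of direct p53 targets the median log2 fold change was 0.68, beside -0.02 over all tested genes. Of their 37 tested genes 10 were higher past both thresholds, beside 404 of all 11608. At an unadjusted p of at most 0.05, 16 of the 37 were higher, beside 10.2% of all tested genes in either direction. At an adjusted p of at most 0.05 there were 2 of the 37, Cdkn1a and Ccng1. In the quasi-likelihood test 0 of the 37 were lower past both thresholds, and 0 were lower at an unadjusted p of at most 0.05, while DESeq2 and the likelihood ratio test each called 1 lower, Gadd45a, a growth arrest gene. It was at 8.09, 8.39 and 11.7 CPM in β1-K794Q-GFP and at 10.8, 10.9 and 77.4 CPM in β1-WT-GFP cells, and its log2 fold change of -1.82 (SE 0.83) came to -0.20 without β1-WT-GFP culture C. The lists were written with results of these samples known, and their direction is not independent evidence.

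Of the targets in cell cycle and growth, 5 of 16 tested genes rose, namely Cdkn1a, Ccng1, Ptprv, Gtse1 and Trp53inp1. Cdkn1a, the gene of the Cdk inhibitor p21, was at 394, 306 and 306 CPM in β1-K794Q-GFP cells and at 31.8, 35.5 and 46.9 CPM in β1-WT-GFP cells (log2 fold change 3.14, SE 0.24, adjusted p = 0.0198). Ccng1, cyclin G1, which binds a phosphatase that acts on Mdm2, was at 144, 190 and 190 against 35.2, 36.6 and 44.4 CPM in the same order (2.17, SE 0.20, adjusted p = 0.0336). Gtse1, a microtubule protein that also restrains p53, was at 51.5, 41.8 and 71 against 6.21, 4.3 and 21.2 CPM (2.36, SE 0.64, adjusted p = 0.252), and its log2 fold change was 3.39 without β1-WT-GFP culture C. Ptprv, a phosphatase gene induced by p53 in mouse cells, had 31, 24 and 67 counts in β1-K794Q-GFP cultures and 0, 1 and 1 in β1-WT-GFP cultures. Trp53inp1 had the smallest log2 fold change of the 5, at 1.03 (SE 0.42), and kept its call in 1 of 6 fits that left out a culture.

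All 11 tested targets in apoptosis had a positive log2 fold change, 7 were at an unadjusted p of 0.05 or less, and 3, Eda2r, Zmat3 and Dram1, rose past both thresholds. The other 2 target lists were mixed in sign, with 5 of 16 genes negative in cell cycle and growth and 3 of 10 in repair and metabolism. Over the 3 lists 29 were positive and 8 negative. Eda2r, a death receptor of the TNF receptor family, was at 234, 116 and 184 CPM in β1-K794Q-GFP cells and at 2.97, 4.3 and 12.1 CPM in β1-WT-GFP cells (log2 fold change 4.78, SE 0.63, adjusted p = 0.0776). With a culture left out it ranged from 4.43 without β1-WT-GFP culture A to 5.62 without β1-WT-GFP culture C. Zmat3, an RNA-binding protein, was at 142, 342 and 160 against 32.8, 31.2 and 32.3 CPM (2.74, SE 0.38, adjusted p = 0.0825), and its log2 fold change was 2.24 without β1-K794Q-GFP culture B. Dram1, a lysosomal membrane protein of the autophagy response, was at 134, 44.6 and 76.9 against 32.5, 36.3 and 8.98 CPM (1.72, SE 0.62, adjusted p = 0.406), and kept its call in 3 of 6 fits that left out a culture. Bax, the pore-forming Bcl2 relative, was under the fold threshold with a log2 fold change of 0.96 (SE 0.16, adjusted p = 0.0956), and passed both thresholds with the level of the neighbours in the offset (1.26) and in 2 of 6 fits that left out a culture. Of 10 targets in repair and metabolism, 2 rose. Gls2, a mitochondrial glutaminase, was at 7.32, 4.05 and 9.97 against 0.787, 0.3 and 1.18 CPM (3.19, SE 0.61, adjusted p = 0.129). Ercc5, a nuclease of nucleotide excision repair, was at 26.4, 23.1 and 35.2 against 17.9, 12.5 and 11.7 CPM (1.01, SE 0.27, adjusted p = 0.252), a call kept in 3 of 6 such fits.

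The remaining 6 lists hold genes that act on p53 or beside it. Among 21 further ubiquitin ligases and deubiquitinases the median log2 fold change was 0.10, with 1 gene higher, Usp15, a deubiquitinase of Mdm2 (202, 140 and 159 against 82.4, 78.8 and 84.6 CPM, log2 fold change 1.03, SE 0.19). Its call was kept in 4 of 6 fits that left out a culture, with a lowest value of 0.87 without β1-K794Q-GFP culture A. The same list had 1 gene lower, Maged2, a MAGE family gene (11.4, 13.8 and 24.5 against 33.8, 36.8 and 39.4 CPM, log2 fold change -1.15, SE 0.32, adjusted p = 0.268), a call lost without β1-K794Q-GFP culture A, where it was -0.93. Among 26 kinases and phosphatases the median was -0.04 and 1 gene rose, Cdk2, the S phase kinase, whose level in β1-K794Q-GFP culture B, 61.8 CPM, was near the 58, 55.8 and 47.2 CPM of β1-WT-GFP cultures and whose level in cultures A and C was 237 and 272 CPM. Among 15 acetyltransferases, deacetylases and methyltransferases, with a median of -0.13, none passed both thresholds with the quasi-likelihood test, the likelihood ratio test or DESeq2, and 1, the demethylase Kdm1a, reached an unadjusted p of 0.05 or less.

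In the ARF and ribosomal protein route 1 of 21 genes rose, E2f1, an activator of ARF (42.4, 25 and 38.9 against 13.3, 9.9 and 26 CPM, log2 fold change 1.11, SE 0.41), whose groups overlapped and whose call was kept in 2 of 6 fits that left out a culture. Among 26 partners of Atm and Atr the median log2 fold change was 0.13, and 1 rose: Timeless, a fork protection protein, was at 280, 269 and 267 CPM in β1-K794Q-GFP cells and at 44.2, 36.4 and 29.5 CPM in β1-WT-GFP cells (2.89, SE 0.21, adjusted p = 0.0198). Of 9 p53 family members and coactivators, with a median of -0.04, Zfp385a, a zinc finger protein that binds p53, rose from 3.94, 3.2 and 4.39 to 7.9, 9.18 and 6.71 CPM (1.04, SE 0.29, adjusted p = 0.273), a call kept in 4 of 6 fits that left out a culture, with a lowest value of 0.93 without β1-WT-GFP culture B. Trp63, the third p53 family gene, was under the filter.

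Chromosome 10 holds 4.76% of all tested genes with a position and 18.3% of those past both thresholds. Of the 154 tested list genes 12 lie on it, and of the 16 past both thresholds 5, Usp15, Cdk2, Timeless, Dram1 and Gls2, and with the level of the neighbours in the offset 2 of the 5 were still past both thresholds, Timeless at a log2 fold change of 1.71 and Gls2 at 1.85. Usp15 came to 0.04, Cdk2 to 0.36 and Dram1 to 1.01, which is still past the fold threshold but not the p threshold. All 11 on other chromosomes were still past both thresholds in that fit. The groups did not overlap in 15 of the 16, beside 16.6% of all tested genes. Genes past both thresholds are selected for a difference between the same cultures, so this count adds no support.

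**Figure D5:**
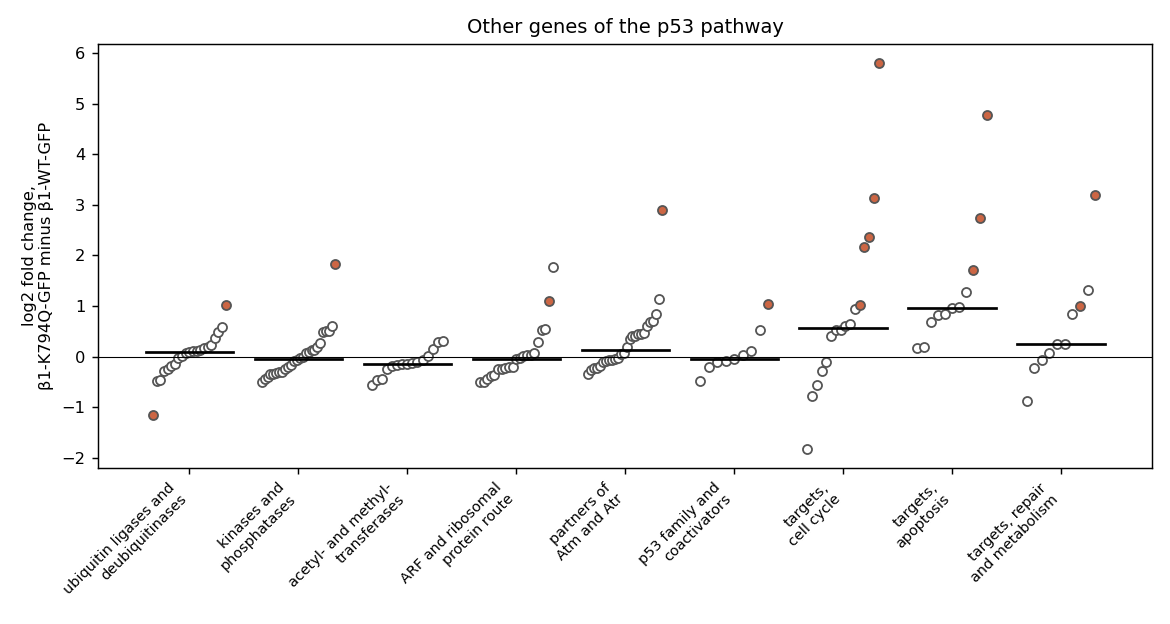
Log2 fold change (β1-K794Q-GFP minus β1-WT-GFP) of every tested gene of the 9 pathway lists, filled where past both thresholds, with a bar at the median of each list. The 3 lists of p53 targets on the right hold 10 of the filled points and have medians between 0.25 and 0.96, while the 6 lists of regulators and partners have medians between -0.13 and 0.13. The value of Ptprv, the highest of the cell cycle list, was fitted against β1-WT-GFP counts of 0 and 1 and depends on the prior count.

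The genes whose profile over the 6 cultures was most like that of a member were sought among 11483 tested genes with a mean of at least 1 CPM, by the root mean square difference of centred log2(CPM + 0.5). The measure is a description over 6 cultures that share their libraries. For Mdm2 the nearest was Ccng1, with a difference of 0.18, followed by Dhrs13 (0.21), Ceacam1 (0.22), Mageh1 (0.24) and Pkd1l3 (0.28), on chromosomes 11, 11, 7, X and 8. Ceacam1, a cell adhesion molecule of endothelium and epithelium, was at 30.3, 28.7 and 26.7 CPM in β1-K794Q-GFP cells and at 7.61, 5.9 and 7.31 CPM in β1-WT-GFP cells. For Trp53 the nearest were Rnf41 (0.09), Os9 (0.09), Mfsd12 (0.11), Sarnp (0.13) and Lemd3 (0.13), each of which lies on chromosome 10 although Trp53 lies on chromosome 11. Os9, a lectin of the endoplasmic reticulum, was at 289, 209 and 317 against 109, 97.3 and 99.2 CPM. For Cdkn2a the nearest were Spag4 (0.13), Blm (0.19), Ltbp1 (0.20), A330021E22Rik (0.20) and Tk1 (0.22). Tk1, the thymidine kinase of S phase cells, was at 28.4, 7.99 and 37.4 against 13.8, 8.9 and 38.6 CPM, low in β1-K794Q-GFP culture B and β1-WT-GFP culture B and high in culture C of both groups, as Cdkn2a was.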

How the data were processed

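Reads of 6 libraries (Illumina Ribo-Zero Plus) were processed by the authors with bcl2fastq 2.20.0, STAR 2.7.4a and HTSeq 0.9.1 on mm10, as named in the submitters' processing notes, which also name edgeR 3.38.4. The authors deposited raw counts per gene symbol, without normalization. The annotation and the strand setting of the counting are not given in the sources used here, and 0 other columns of per-sample values were present.

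The counts were analysed with edgeR 4.0.16 in R 4.3.3 (filterByExpr, TMM, glmQLFit and glmQLFTest, two-sided, common dispersion 0.186), the model named in the study's methods, as were the thresholds of 2-fold and an unadjusted p not above 0.05. The standard error is the log2 fold change divided by the square root of F. Positions and exon lengths came from GENCODE M21 (GRCm38), with 21785 symbols matched directly and 1260 by a synonym. The 24 nearest tested genes gave the regional level, the running median, culture by culture, of log2 CPM relative to β1-WT-GFP cells. Alternatives were RLE, no filter, at least 10 counts in every culture, DESeq2 1.42.0, the likelihood ratio test, the culture letter as block, the regional offset and leaving out each culture. The fits were tested beforehand on simulated counts with a dispersion set below the 0.186 of these cultures. That simulation therefore does not show how the fits behave at the spread of these data.

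The members and lists were chosen with earlier results of these data known. Named were all members, list genes past both thresholds (at most 4 a list with values), the nearest tested genes and the 5 genes most alike to Mdm2, Trp53 and Cdkn2a. Bax, Apaf1, Kdm1a and Gadd45a were named after their values were seen. Figures were made in Python 3.11.15 with matplotlib 3.10.9. Protein and DNA were not analysed here.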

Additional observations from a re-analysis of the deposited data

How the results depend on the processing

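Mdm2 and Trp53 were the members past both thresholds under all 13 refits (2 members each time), whereas 1 member passed with an adjusted p of at most 0.05 as the call. The direction of Mdm2, Trp53, Mdm4, Atm and Atr held in every refit. The log2 fold change of Cdkn2a turned to 0.061 with the regional offset and ranged from -0.38 to 0.90 when a culture was left out, and that of Usp7 turned to 0.10 with the offset and ranged from -0.13 to 0.074. Leaving out a culture also turned the sign of Ppm1d (-0.10 to 0.40) and Chek2 (-0.18 to 0.51). With the regional level subtracted, the log2 differences of the Mdm2 ratios moved from 0.82 to 0.021 (Trp53), from 2.93 to 1.49 (Mdm4) and from 2.18 to 1.22 (Usp7). Cdkn2a, Usp7, Ppm1d and Chek2 did not pass the thresholds in any of these fits, and the cause was not tested. Over all genes 603 passed both thresholds, against 916 without a filter, where 15974 genes were tested, 942 with β1-K794Q-GFP culture B left out and 992 with β1-WT-GFP culture C left out. The lowest counts were 425 with at least 10 counts in every culture, 501 without β1-WT-GFP culture B and 520 with the regional offset. The list genes past both thresholds numbered 16, and between 13 and 21 in the alternatives.

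Whether the culture letters pair the samples was not settled. The deviations of same-letter cultures from their group means correlated at 0.095, 0.055 and 0.095. Those of cultures with different letters correlated at values from -0.152 to 0.0954. With the letter as a block, 571 genes passed both thresholds, with log2 fold changes of 2.16 for Mdm2, 1.34 for Trp53 and -0.77 for Mdm4. The unadjusted p of Mdm4 rose to 0.0737. That of Atr fell from 0.219 to 0.0534, at a log2 fold change of -0.47. With 3 cultures a group and a wide spread in Cdkn2a, Chek2 and Atr, changes near 2-fold in these genes could be missed.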
